A study of Mus musculus with 21 samples.

Results

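The 10 genes described here, Fos, Fosb, Atf3, Nr4a1, Crem, Pde10a, Ppargc1a, Dusp1, Areg and Egr1, are transcripts known to respond to cyclic AMP or to growth signals within a short time, and they were taken by gene symbol from 43436 genes measured in every library. They were followed through the conversion of mouse fibroblasts into pluripotent cells by small molecules, a cocktail that includes forskolin, a plant compound that activates adenylyl cyclase and so raises cyclic AMP. RNA was sequenced in 21 libraries of 10 groups and expressed as FPKM, the fragments of a gene scaled to its length and to all mapped fragments of the library. The starting cells were mouse embryonic fibroblasts (MEF, 2 libraries) from E13.5 embryos. Cells on the way gave 2 libraries at day 16 and a single one at each of day 12, day 20, day 26 and day 28. MEF, the cells on the way and the 7 lines of chemically induced pluripotent stem cells (CiPSC, 1 library each from the C lines C1 to C3, the G lines G1 and G3, and N4 with N6) had the strain C57BL/6J-Tg(GOFGFP)11Imeg/Rbrc x ICR. All 4 libraries of extraembryonic endoderm (XEN) cells, the lineage of the yolk sac lining, were wild-type ICR. CeXEN (2 libraries) were derived from day 3.5 embryos in the medium of the first reprogramming stage with the compounds abbreviated VC6TFAE and 20 ng/ml of the growth factor bFGF. The other XEN source, eXEN, was a single established line, with replicate 1 kept in that first-stage medium with the compounds VC6TF and 20 ng/ml bFGF and replicate 2 in traditional XEN medium, whose components the labels do not list. Of the 2 embryonic stem cell libraries (ESC, from embryonic day 3.5), replicate 1 had the strain of the MEF and replicate 2 was C57BL/6 (B6)N. The labels do not give the medium or the harvest conditions of the MEF, the cells on the way, the ESC or the CiPSC. Nothing says that replicates came from separate cultures, so p-values measure only the spread between these libraries, which may be technical.

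Cyclic AMP is made by adenylyl cyclases, releases the catalytic subunits of protein kinase A, and is destroyed by phosphodiesterases. Protein kinase A phosphorylates the transcription factor CREB, which binds the cyclic AMP response element in the promoters of genes such as Fos, Nr4a1, Crem and Ppargc1a. Immediate early genes are induced without new protein synthesis, by growth factors through ERK signalling and serum response factor as well as by cyclic AMP, and their transcripts decay quickly, so handling of cells before lysis is known to move them.

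By role, the members fall into transcription factors, a coactivator, enzymes and a ligand. Fos (chr12:85473890-85477273, plus strand, mm10) and Fosb (chr7:19302721-19310045, minus strand) encode partners of JUN proteins in the factor AP-1, and Egr1 (chr18:34859823-34864984, plus strand) encodes a zinc finger factor induced by growth signals. Atf3 (chr1:191170296-191218039, minus strand) encodes a stress-induced factor of the ATF/CREB family, and Nr4a1 (chr15:101266846-101274792, plus strand) encodes an orphan nuclear receptor. Crem (chr18:3266048-3337748, minus strand) encodes activators and repressors that bind the cyclic AMP response element, among them the inducible repressor ICER made from an internal promoter. The values here are for the whole gene and do not tell its isoforms apart. Ppargc1a (chr5:51454249-51567725, minus strand) encodes PGC-1alpha, a coactivator of mitochondrial and gluconeogenic genes. Pde10a (chr17:8525372-8986648, plus strand) encodes a phosphodiesterase that breaks down cyclic AMP and cyclic GMP, and Dusp1 (chr17:26505590-26508519, minus strand) encodes a phosphatase that switches off MAP kinases. Areg (chr5:91139615-91148432, plus strand) encodes amphiregulin, a ligand of the EGF receptor. In the GENCODE annotation of this build, 1 other gene overlapped Atf3, 1 overlapped Crem, 3 overlapped Pde10a and 4 overlapped Ppargc1a, each of these genes carrying only a predicted-gene name. Use of strand in the authors' counting is not given in the sources used here, so reads of such overlapping genes could not be told apart from those of the member.

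RefSeq promoter windows (GRCm38.p6, 250 bases before to 50 bases after the annotated start) were found for 8 of the 10 genes, with a pair of windows for Pde10a. They were searched on both strands for the cyclic AMP response element TGACGTCA and for its core TGACG, of which each whole element holds 2, 1 per strand. The core was found in 7 of the 8 genes with a window (9 windows in all), against 20.8% of all 32851 windows. The whole element was found in Areg and Dusp1 only among the 8, against 1.79% of all windows. The members were chosen as genes known to respond to cyclic AMP or growth signals, so these shares only describe that choice.

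Upstream stretches of 5 genes are shown because they belong to genes whose levels are compared below and because their matches differ in number and spacing. Capitals mark the matches, and each line gives the 250 bases before the start, 5′ to 3′ on the gene's strand.
Areg (chr5:91139349-91139598, plus strand): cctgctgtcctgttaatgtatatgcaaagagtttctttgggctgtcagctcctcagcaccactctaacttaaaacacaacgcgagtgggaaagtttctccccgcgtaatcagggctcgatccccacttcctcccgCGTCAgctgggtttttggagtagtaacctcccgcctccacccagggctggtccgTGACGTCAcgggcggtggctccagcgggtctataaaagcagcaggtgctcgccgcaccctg
Dusp1 (chr17:26508473-26508722, minus strand): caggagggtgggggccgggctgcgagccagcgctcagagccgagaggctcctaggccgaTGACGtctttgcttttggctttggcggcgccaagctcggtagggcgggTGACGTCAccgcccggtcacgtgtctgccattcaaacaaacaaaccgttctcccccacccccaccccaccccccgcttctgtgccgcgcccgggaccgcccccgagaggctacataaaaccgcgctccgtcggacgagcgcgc
Fos (chr12:85473640-85473889, plus strand): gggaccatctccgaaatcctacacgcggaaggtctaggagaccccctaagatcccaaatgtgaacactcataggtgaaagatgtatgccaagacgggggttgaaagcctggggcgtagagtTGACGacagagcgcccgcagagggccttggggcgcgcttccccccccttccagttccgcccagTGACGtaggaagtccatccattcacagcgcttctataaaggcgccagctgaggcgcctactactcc
Nr4a1 (chr15:101266596-101266845, plus strand): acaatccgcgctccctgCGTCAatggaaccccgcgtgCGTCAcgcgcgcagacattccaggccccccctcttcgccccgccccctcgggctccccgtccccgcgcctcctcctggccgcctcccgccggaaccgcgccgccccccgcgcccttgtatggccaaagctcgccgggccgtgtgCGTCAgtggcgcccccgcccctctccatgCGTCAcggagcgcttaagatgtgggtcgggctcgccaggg
Ppargc1a (chr5:51567726-51567975, minus strand): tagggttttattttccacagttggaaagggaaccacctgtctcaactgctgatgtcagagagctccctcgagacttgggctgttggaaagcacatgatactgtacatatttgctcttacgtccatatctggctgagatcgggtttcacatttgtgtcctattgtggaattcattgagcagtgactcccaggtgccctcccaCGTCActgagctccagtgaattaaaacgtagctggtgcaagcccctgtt

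In Areg the whole element began 61 bases before the start and a further core 115 bases before it. In Dusp1 the whole element began 143 bases and a further core 191 bases before the start. The Nr4a1 window held 4 cores, a number reached by 0.231% of all windows, and the Fos window held 2, at 129 and 66 bases, a number reached by 5.01%. Ppargc1a had 1 core at 49 bases, Fosb 1 at 60 bases and Atf3 1 at 7 bases before the start. Neither Pde10a window (chr17:8801495-8801794 and chr17:8849735-8850034) held the core. Both windows lie inside the locus given above, and the sequence at the locus start, 8525372, was not searched. The Atf3 window (chr1:191183284-191183583) also lies inside its locus, away from the minus-strand start at 191218039. The letters TATAAA stood 33 bases before the start of Fos and 31 bases before that of Areg, against 13.6% of all windows. No window of the 8 genes held the AP-1 letters TGANTCA, found in 7.81% of all windows. A match of letters is a description of the sequence and not a binding site.

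**Figure D1:**
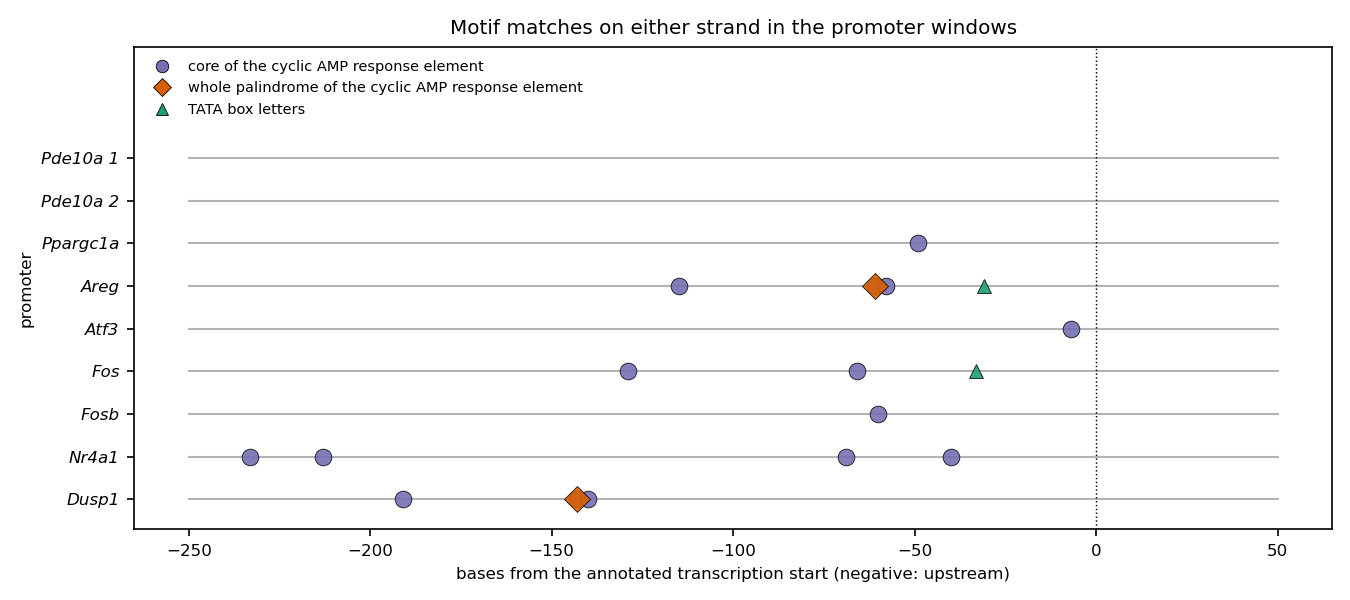
Positions of motif matches in the 9 promoter windows of 8 genes, in bases from the annotated start on the x axis. Circles mark the core of the cyclic AMP response element, diamonds the whole element (Areg and Dusp1) and triangles the TATA letters (Fos and Areg), with Nr4a1 holding 4 cores and the Pde10a windows none.

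Per library, FPKM summed to between 543198 and 864945, 11240 to 13982 genes reached 1 FPKM, and depth relative to ESC replicate 1 lay between 0.403 (CiPSC C3) and 1.58 (CiPSC N4). The groups' labels were checked against defining markers. The sum of 7 XEN markers was 858 to 1750 FPKM in the cells on the way, 1680 to 3830 FPKM in the 4 XEN libraries and at most 63.2 FPKM in MEF, CiPSC and ESC. The sum of 7 fibroblast markers was 691 FPKM at day 12 and 2670 and 10300 FPKM in MEF, and that of 7 pluripotency markers was 4290 to 5380 FPKM in CiPSC and 4680 and 4870 FPKM in ESC. Macrophage markers, of which 6 were tested, summed to 36 FPKM at day 12, 51.6 and 116 FPKM in MEF and at most 17.5 FPKM in the other libraries, and their part in the results against MEF was not tested. Files of day 12, day 16 replicate 1, day 20 and day 26 list 446 rows with a low-data status that no other file has, and whether they were processed in another way is not given in the sources used here. All 10 members passed the filter on low values (at least 1 FPKM in at least 2 libraries), as did 16650 genes in all. In bulk samples, fewer cells of a type and less RNA per cell cannot be told apart.

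The members differed in how far libraries of the same group lay from each other. The residual SD of log2(FPKM + 1) around the group means was 2.09 for Egr1, 0.79 for Fos, 0.69 for Nr4a1, 0.58 for Atf3, 0.58 for Dusp1 and 0.51 for Fosb, against a median of 0.33 over all genes tested. It was 0.25 for Crem, 0.30 for Pde10a, 0.38 for Areg and 0.11 for Ppargc1a. The 6 genes with the wide spread are those best known as fast transient genes, and 99.6% of all tested genes had a lower spread than Egr1. This spread includes the difference between the eXEN libraries, which were kept in different media. As replicate 1 minus replicate 2, that log2 difference was -2.04 for Atf3, -1.95 for Egr1, -1.81 for Fosb, -1.26 for Fos, -0.19 for Nr4a1 and -0.17 for Dusp1. The ESC libraries differ in strain, and the parts of medium and strain in the spread were not tested. Ppargc1a is at or near 0 in most groups, where its spread is bounded by 0.

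**Figure D2:**
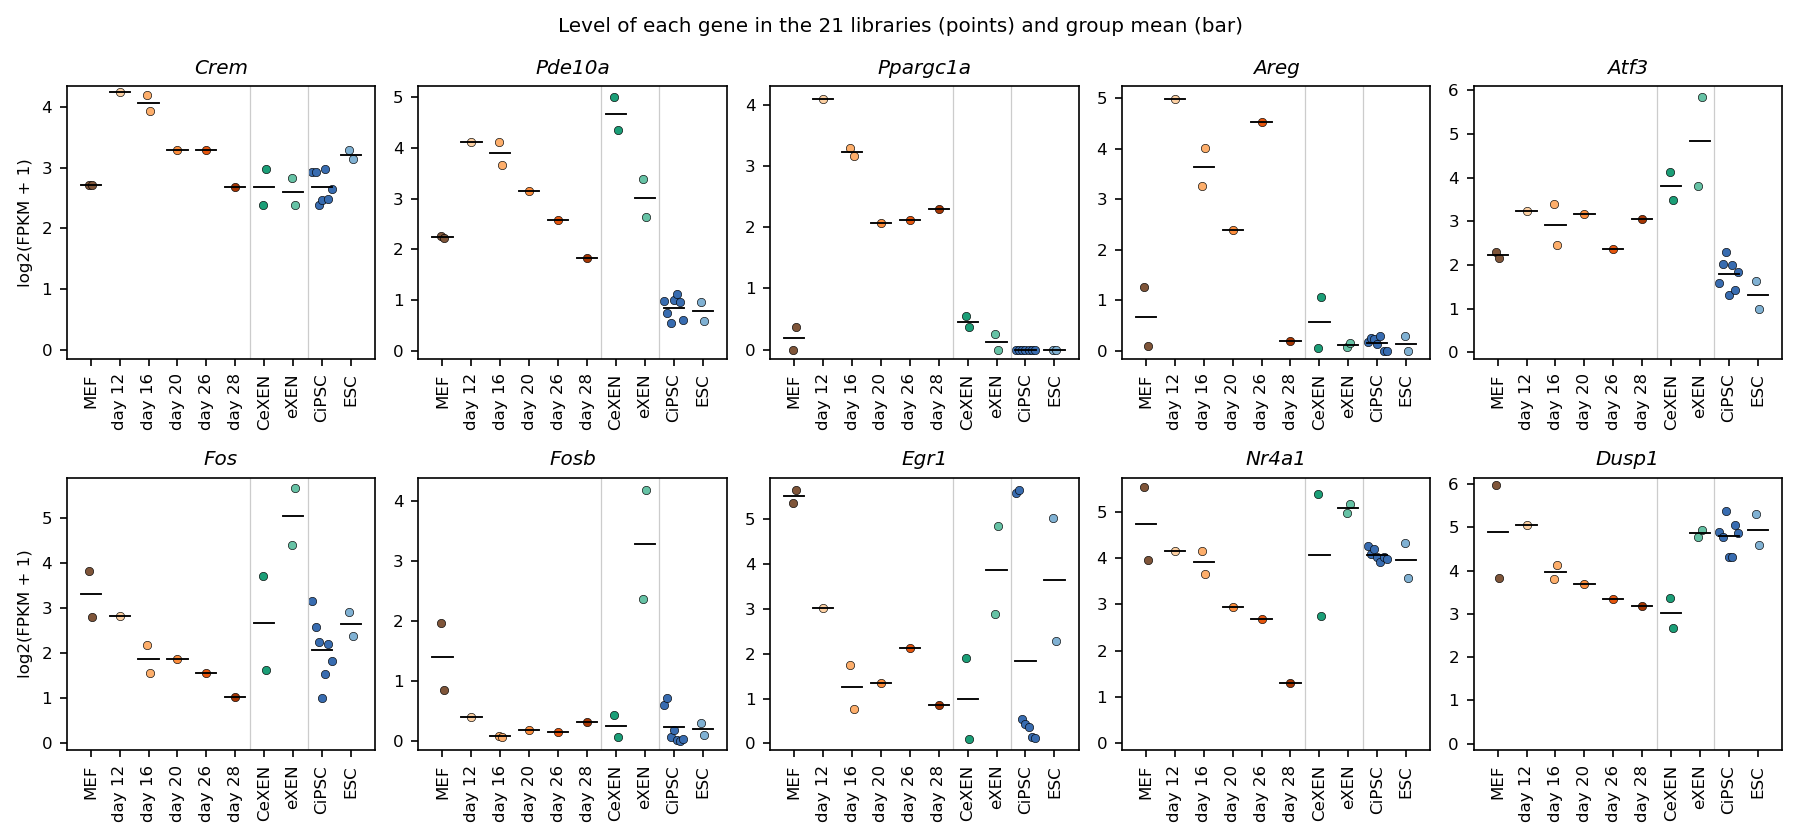
Level of each of the 10 genes as log2(FPKM + 1) on the y axis, by group on the x axis, with a point per library and a bar at the group mean. Crem, Pde10a, Ppargc1a and Areg stand highest at day 12 or, for Pde10a, in CeXEN, while Fos, Fosb and Atf3 stand highest in eXEN and Egr1 separates libraries within CiPSC and ESC.

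Day 16 against MEF asks what the members did once the cultures carried XEN markers (sums of 1440 and 1750 FPKM). Fibroblast markers were still present there, at sums of 194 and 370 FPKM. Of the 10 members, 4 were called higher at day 16 than in MEF, namely Ppargc1a, Areg, Pde10a and Crem, and 1 was called lower, Fosb. A call means an adjusted p under 0.05 from limma with Benjamini-Hochberg adjustment over all 16650 genes together with a log2 change of 1 or more in size. In this comparison 13.3% of all tested genes were called higher and 7.41% lower, 20.7% either way. The median change of all genes was 0.22 on the log2 scale for the values as deposited, -0.02 after quantile normalization and 0 after median-of-ratios scaling, and the share of called genes that were higher was 64.3%, 47% and 47.2% in the same order. All 5 member calls of this comparison held under both scalings.

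Ppargc1a had 8.78 and 7.96 FPKM at day 16, against 0.295 FPKM in 1 MEF library and a listed value of 0 in the other. The gene of PGC-1alpha was thus at the edge of detection in the fibroblasts and clearly present in both day 16 libraries. Its log2 change was 3.04 ± 0.18 (SE, limma adjusted p = 3.89e-08), on the scale of log2(FPKM + 1), which understates changes of genes near 0. Areg had 8.59 and 15.1 FPKM at day 16, against 1.41 and 0.0678 FPKM in MEF. Its groups did not overlap, and the change was 2.95 ± 0.37 (limma adjusted p = 4.72e-05). Pde10a had 16.4 and 11.6 FPKM at day 16, against 3.83 and 3.67 FPKM in MEF, a log2 change of 1.64 ± 0.31 (limma adjusted p = 0.00129). Crem had 17.3 and 14.4 FPKM at day 16, against 5.55 and 5.56 FPKM in MEF, a log2 change of 1.36 ± 0.27 (limma adjusted p = 0.00203). Neither of these genes had a day 16 library within the range of the MEF libraries. Each of the 4 calls held with any 1 of the 4 libraries left out, also without day 16 replicate 1, the only library of these with the low-data rows. None held where the fit used the 4 libraries of the pair alone (adjusted p of 0.0596 for Ppargc1a, 0.102 for Crem, 0.106 for Pde10a and 0.115 for Areg).

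The other members were called lower at day 16 (Fosb) or were not called. Fosb had 0.0596 and 0.0548 FPKM at day 16, against 2.92 and 0.8 FPKM in MEF, a log2 change of -1.33 ± 0.47 (limma adjusted p = 0.0489), and the call was lost without MEF replicate 1 (-0.77, adjusted p = 0.334), without either day 16 library (adjusted p of 0.153 and 0.13) and with no filter on low values (adjusted p = 0.0851). Egr1 had 2.36 and 0.708 FPKM at day 16, against 40.0 and 48.9 FPKM in MEF. Its groups lay far apart, with a log2 change of -4.24 ± 1.84, and the limma adjusted p was 0.102. The spread that enters this test comes from all groups with more than 1 library, including the pluripotent groups described below. Fos had 3.56 and 1.97 FPKM at day 16, against 13.2 and 5.99 FPKM in MEF (log2 change -1.44 ± 0.71, limma adjusted p = 0.15). Nr4a1 had 16.8 and 11.6 FPKM at day 16, against 45.1 and 14.6 FPKM in MEF, and Dusp1 had 13.0 and 16.4 FPKM at day 16, against 62.3 and 13.1 FPKM in MEF. For both, MEF replicate 1 stood alone at the top and MEF replicate 2 lay within or near the day 16 values. Atf3 had 9.46 and 4.52 FPKM at day 16, against 3.92 and 3.5 FPKM in MEF, with no overlap and no call.

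The 2 MEF libraries differed from each other in these genes. Between them, 5 members were past a 2-fold difference on the log2(FPKM + 1) scale, all higher in MEF replicate 1, against 5.87% of all tested genes higher and 7.77% lower in that replicate. They were Fos, Fosb, Nr4a1, Dusp1 and Areg. Of 21 tested genes in a list of other immediate early genes, 11 were past that fold higher in MEF replicate 1 and 0 lower. Egr1 was not among the members that differed, and Crem and Pde10a were nearly equal in both MEF libraries. How the MEF libraries were handled is not in the labels, and its part in these differences was not tested.

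**Figure D3:**
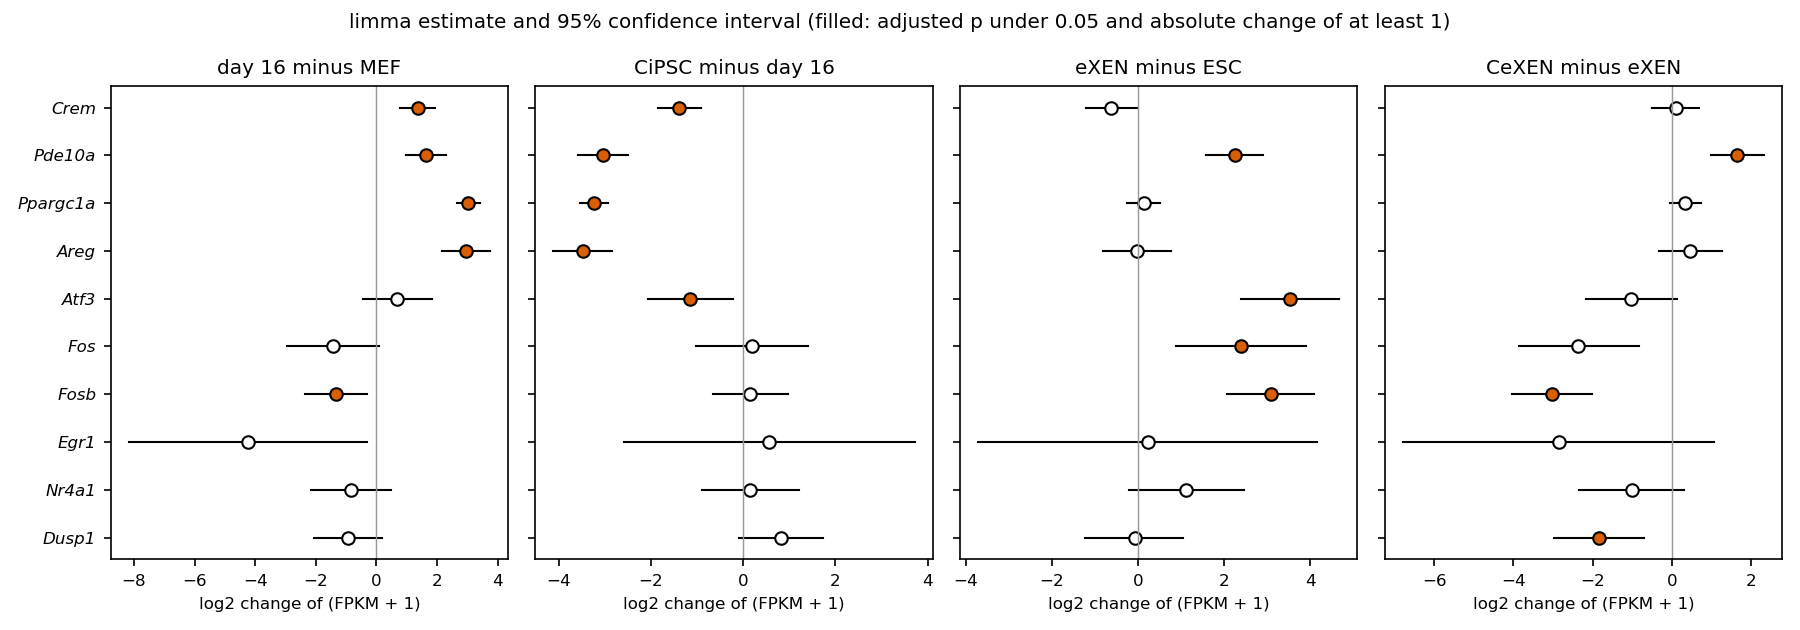
Log2 change of each gene (x axis, with its 95% confidence interval) in 4 comparisons, filled where called. Ppargc1a, Areg, Pde10a and Crem are filled on the right in day 16 minus MEF and on the left in CiPSC minus day 16, and the interval of Egr1 is the widest in each panel.

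Over the day course, from day 12 to day 28, most members stood highest at day 12, or level with a day 16 library, and lowest at day 28. Crem had 18.1 FPKM at day 12, 17.3 and 14.4 at day 16, 8.82 at day 20, 8.79 at day 26 and 5.41 at day 28, the last of these within the range of the CiPSC lines. Pde10a had 16.4 FPKM at day 12, 16.4 and 11.6 at day 16, 7.81 at day 20, 4.95 at day 26 and 2.58 at day 28, below both MEF libraries at the end. Ppargc1a had 16.2 FPKM at day 12, 8.78 and 7.96 at day 16, 3.21 at day 20, 3.34 at day 26 and 3.94 at day 28. Its level thus stood lower from day 20 on but did not go back to the near 0 of MEF. Areg behaved less evenly, with 30.7 FPKM at day 12, 8.59 and 15.1 at day 16, 4.24 at day 20, 21.9 at day 26 and 0.155 at day 28. Day 26 stood above day 16 and day 20 for this gene, and day 28 lay within the range of the CiPSC and ESC libraries.

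Nr4a1 had 16.8 FPKM at day 12, 16.8 and 11.6 at day 16, 6.65 at day 20, 5.44 at day 26 and 1.45 at day 28, the lowest value of this gene in the 21 libraries. Dusp1 had 32.2 FPKM at day 12, 13.0 and 16.4 at day 16, 11.8 at day 20, 9.08 at day 26 and 8.02 at day 28. Fos had 6.06 FPKM at day 12, 3.56 and 1.97 at day 16, 2.64 at day 20, 1.97 at day 26 and 1.03 at day 28. Over these days Nr4a1, Dusp1 and Fos were lowest at day 28, as were Crem and Pde10a. Fosb stayed at or below 0.32 FPKM, Egr1 lay between 0.708 and 7.05 FPKM with its highest value at day 12, and Atf3 lay between 4.19 and 9.46 FPKM with no order by day.

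A linear trend on the day over the 6 libraries called 0 of the 10 members and 0 of 16650 genes (0% called), with a smallest adjusted p of 0.175 over all genes. At an unadjusted p under 0.05, 6 members were lower with the day and 0 higher, against 11.8% of all tested genes lower and 8.3% higher. The 6 were Nr4a1 with a change over 16 days of -2.60 ± 0.48 on the log2 scale, Pde10a with -2.25 ± 0.31, Ppargc1a with -1.79 ± 0.49, Dusp1 with -1.56 ± 0.35, Crem with -1.49 ± 0.28 and Fos with -1.34 ± 0.40 (SE), with limma adjusted p between 0.175 and 0.193. Areg had -2.76 ± 1.51 (limma adjusted p = 0.353), and without day 28 this became -0.50. Within the 4 libraries of day 12, day 16 replicate 1, day 20 and day 26, whose files share the low-data rows, Crem, Pde10a, Nr4a1, Dusp1 and Fos had no value above that of day 12 and their lowest at day 26, with Nr4a1 at 16.8 FPKM and Pde10a at 16.4 FPKM on both day 12 and day 16. The sum of 7 fibroblast markers was also highest at day 12 and lowest at day 28, at 691 FPKM on day 12, 194 and 370 on day 16, 61.1 on day 20, 96.6 on day 26 and 8.99 on day 28. The sum of 7 pluripotency markers was 27.9 FPKM on day 12, 5.66 and 195 on day 16, 166 on day 20, 631 on day 26 and 342 on day 28, and that of 7 XEN markers was 858 FPKM on day 12 and 1440 to 1750 FPKM on the later days. At an unadjusted p under 0.05, 6 of the 7 fibroblast markers were lower with the day, 5 of the 7 pluripotency markers higher, and 0 of the 7 XEN markers either way. The part of such a change in cell types in the values of the members was not tested.

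**Figure D4:**
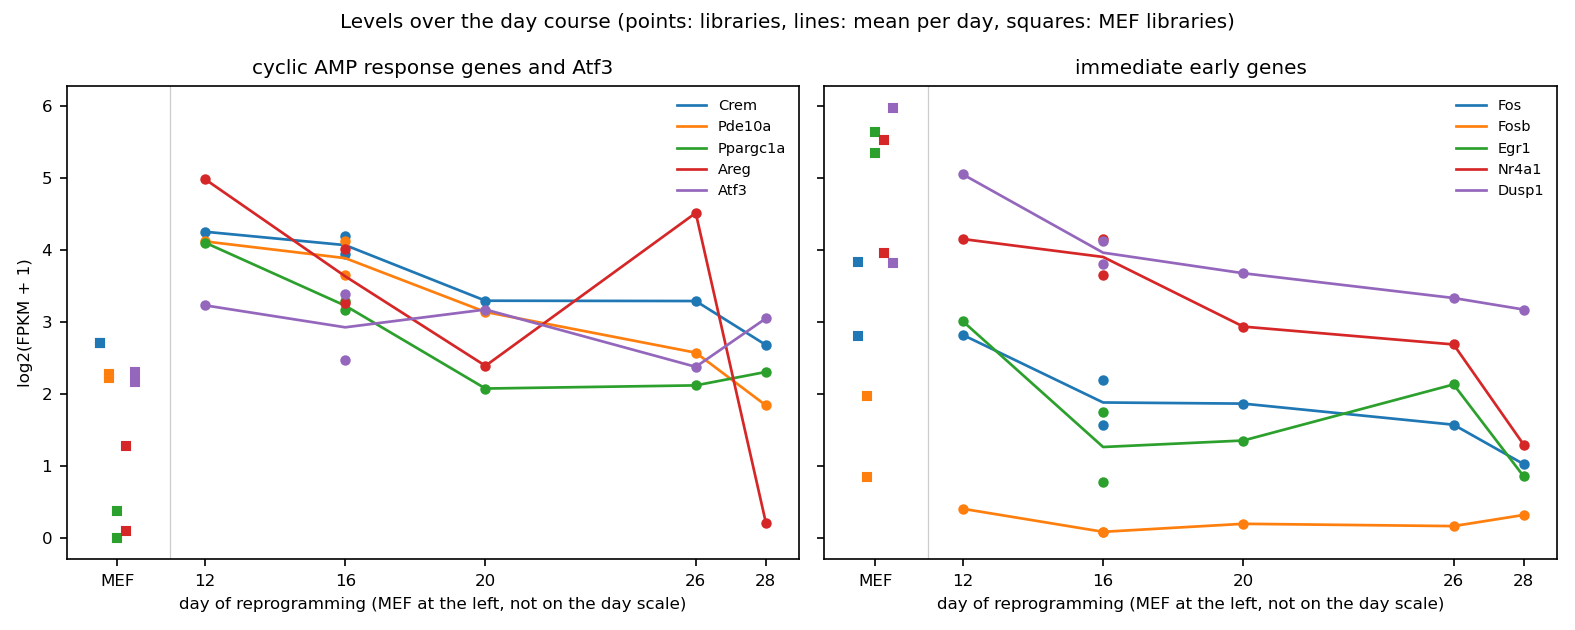
Levels as log2(FPKM + 1) on the y axis against the day of reprogramming, with points for libraries, lines through the mean per day and squares for the MEF libraries at the left, which are off the day scale. Crem, Pde10a and Ppargc1a start above MEF at day 12 and stand lower later, Areg is high again at day 26, and Fos, Nr4a1 and Dusp1 start within the MEF range.

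CiPSC against day 16, which shares its day 16 libraries with the comparison above, asks what the members did on reaching pluripotency. Of the 10 members, 5 were called lower in CiPSC and 0 higher (0 higher also at an unadjusted p under 0.05), against 17% of all tested genes called lower and 13% higher, 29.9% either way. Ppargc1a was listed at 0 in all 7 CiPSC lines, against 8.78 and 7.96 FPKM at day 16 (log2 change -3.23 ± 0.14, limma adjusted p = 6.59e-10). Areg had a median of 0.134 FPKM in CiPSC, from 0 to 0.231 FPKM, against 8.59 and 15.1 FPKM at day 16 (-3.47 ± 0.30, limma adjusted p = 4.86e-07). Pde10a had a median of 0.942 FPKM in CiPSC, from 0.459 to 1.19 FPKM, against 16.4 and 11.6 FPKM at day 16 (-3.04 ± 0.25, limma adjusted p = 3.23e-07). These 3 genes thus ended at or near 0, with no CiPSC line near the day 16 range. Crem had a median of 5.29 FPKM in CiPSC, from 4.2 to 6.93 FPKM, against 17.3 and 14.4 FPKM at day 16 (-1.38 ± 0.22, limma adjusted p = 0.000151), so its transcript stayed expressed. Atf3 had a median of 2.56 FPKM in CiPSC, from 1.5 to 3.94 FPKM, against 9.46 and 4.52 FPKM at day 16 (-1.14 ± 0.43, limma adjusted p = 0.04). The Atf3 call was lost without day 16 replicate 1 (-0.68, adjusted p = 0.394), under both other scalings (adjusted p of 0.0764 and 0.0634), with no filter on low values (0.0715) and without 4 of the CiPSC lines in turn (0.052 to 0.0631). The other 5 members, Fos, Fosb, Nr4a1, Dusp1 and Egr1, were not called. Dusp1 had 19.0 to 40.5 FPKM in CiPSC, against 13.0 and 16.4 FPKM at day 16, without overlap.

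Within the XEN libraries, Fos, Fosb, Atf3 and Egr1 differed between the eXEN libraries, which were kept in different media. The eXEN line in traditional medium, and not the eXEN library in the chemical medium, held the highest Fos, Fosb and Atf3 of all 21 libraries. Fos had 20.2 FPKM in eXEN replicate 1 (chemical medium), with quantifier bounds of 17.9 and 22.5, against 49.6 FPKM in eXEN replicate 2 (traditional medium), with bounds of 46.0 and 53.2. Fosb had 4.18 FPKM in the chemical medium, against 17.2 FPKM in the traditional medium. Atf3 had 13.1 FPKM in the chemical medium, against 57.0 FPKM in the traditional medium, and Egr1 had 6.39 FPKM in the chemical medium, against 27.6 FPKM in the traditional medium. The traditional-medium library was thus 2.46 to 4.36 times higher in these 4 genes. With 1 library per medium there is no test, and medium and library cannot be told apart.

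The other members did not share this difference. Nr4a1 had 30.4 FPKM in the chemical medium, against 34.9 FPKM in the traditional medium, and Dusp1 had 26.4 FPKM in the chemical medium, against 29.8 FPKM in the traditional medium. Crem had 6.08 FPKM in the chemical medium, against 4.21 FPKM in the traditional medium, and Pde10a had 9.45 FPKM in the chemical medium, against 5.25 FPKM in the traditional medium. These last values were higher in the chemical medium by less than 2-fold. Ppargc1a and Areg stood at no more than 0.19 FPKM in either library. In all, 4 of 10 members were past a 2-fold difference, all lower in the chemical medium, against 3.97% of all tested genes lower and 7.05% higher. Of the 21 other immediate early genes tested, 7 were past that fold lower in the chemical medium and 2 higher.

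CeXEN against eXEN compares XEN cells derived in the chemical medium with the established line, pooled over its 2 media. The compounds were VC6TFAE for CeXEN and VC6TF for eXEN replicate 1. Source and compounds thus differ together and cannot be told apart, also against eXEN replicate 1 alone. Pde10a was called higher in CeXEN and Fosb and Dusp1 lower, 3 of 10 members, against 6.47% of all tested genes called either way (4.01% higher and 2.46% lower). Of the called genes 62% were higher in CeXEN, and 49.8% after quantile normalization. Pde10a had 30.8 and 19.3 FPKM in CeXEN, against 9.45 and 5.25 FPKM in eXEN (log2 change 1.65 ± 0.31, limma adjusted p = 0.0047), and it was highest in CeXEN among all 10 groups. Against eXEN replicate 1 alone, the library in chemical medium, the change was 1.28 (adjusted p = 0.0645) and not called. Fosb had 0.355 and 0.0515 FPKM in CeXEN, against 4.18 and 17.2 FPKM in eXEN (-3.02 ± 0.47, limma adjusted p = 0.00128). Dusp1 had 9.29 and 5.42 FPKM in CeXEN, against 26.4 and 29.8 FPKM in eXEN (-1.84 ± 0.53, limma adjusted p = 0.0486). For both, every CeXEN library lay below every eXEN library, but the call of Dusp1 was lost with either eXEN library left out (adjusted p of 0.101 and 0.205), without CeXEN replicate 2 (0.306) and with no filter on low values (0.0995). None of the 3 calls held where the fit used the 4 XEN libraries alone (adjusted p of 0.322 for Pde10a, 0.316 for Fosb and 0.234 for Dusp1).

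The 2 CeXEN libraries differed among themselves in several members. Fos had 12.1 and 2.11 FPKM in CeXEN, against 20.2 and 49.6 FPKM in eXEN (-2.36 ± 0.71, limma adjusted p = 0.0585), a value that passed the threshold without CeXEN replicate 1 (-3.40, adjusted p = 0.00908). Nr4a1 had 40.4 and 5.68 FPKM in CeXEN, against 30.4 and 34.9 FPKM in eXEN, so that its log2 change of -1.01 ± 0.62 (limma adjusted p = 0.392) turned to 0.30 without CeXEN replicate 2 and was called without CeXEN replicate 1 (-2.33, adjusted p = 0.00553). Egr1 had 2.75 and 0.0646 FPKM in CeXEN, against 6.39 and 27.6 FPKM in eXEN (-2.86 ± 1.84, limma adjusted p = 0.421). Atf3 had 16.4 and 10.2 FPKM in CeXEN, against 13.1 and 57.0 FPKM in eXEN (-1.03 ± 0.54, limma adjusted p = 0.294), and the difference was -0.01 without eXEN replicate 2. Between the CeXEN libraries, 3 members were past a 2-fold difference higher in replicate 1 (Fos, Nr4a1 and Egr1) and 1 lower (Areg), against 1.18% of all tested genes higher and 10.4% lower in that replicate. Crem and Ppargc1a were not called between CeXEN and eXEN.

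**Figure D5:**
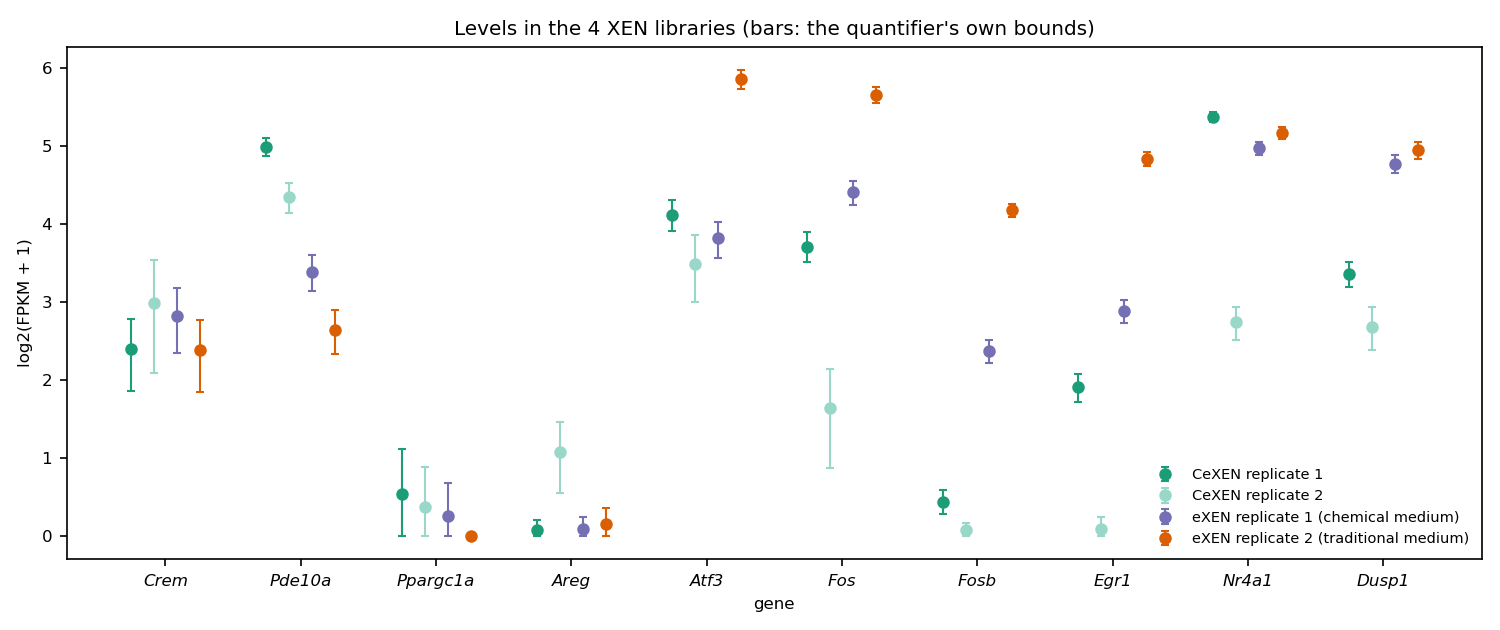
Level of each gene as log2(FPKM + 1) in the 4 XEN libraries, with bars for the bounds given by the authors' quantifier. Atf3, Fos, Fosb and Egr1 are highest in eXEN replicate 2, Pde10a is highest in both CeXEN libraries, and Nr4a1 is as high in CeXEN replicate 1 as in eXEN while CeXEN replicate 2 is low.

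Against ESC, the XEN cells separated in a few members. The eXEN and CeXEN comparisons share the same ESC libraries. In both, cell type and strain differ together and cannot be told apart, and the medium of the ESC is not in the labels. Of the 10 members, 4 were called higher in eXEN than in ESC and 0 lower (1 lower, Crem, at an unadjusted p under 0.05), against 9.78% of all tested genes higher and 18.4% lower, 28.1% either way. The median change of all genes was -0.26, and 0.02 after quantile normalization, with 34.7% and 52.4% of the called genes higher in eXEN. Atf3 had 13.1 and 57.0 FPKM in eXEN, against 2.11 and 0.981 FPKM in ESC (log2 change 3.53 ± 0.54, limma adjusted p = 0.000167). Fosb had 4.18 and 17.2 FPKM in eXEN, against 0.233 and 0.0729 FPKM in ESC (3.08 ± 0.47, limma adjusted p = 0.000182). Pde10a had 9.45 and 5.25 FPKM in eXEN, against 0.965 and 0.498 FPKM in ESC (2.24 ± 0.31, limma adjusted p = 8.12e-05). The 3 calls held with the chemical-medium library alone for eXEN, but those of Atf3 and Fosb were lost where the fit used the eXEN and ESC libraries alone (adjusted p of 0.0613 and 0.0595). Fos had 20.2 and 49.6 FPKM in eXEN, against 6.54 and 4.22 FPKM in ESC (2.38 ± 0.71, limma adjusted p = 0.0166), and its call was lost without eXEN replicate 2 (1.76, adjusted p = 0.152), without ESC replicate 2 (2.12, adjusted p = 0.1) and with those 4 libraries alone (adjusted p = 0.0574).

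Of the 10 members, 2 were called higher in CeXEN than in ESC and 1 lower, against 12.5% of all tested genes higher and 17.8% lower, 30.3% either way. The median change of all genes was -0.15 as deposited and 0 after quantile normalization. Pde10a had 30.8 and 19.3 FPKM in CeXEN, against 0.965 and 0.498 FPKM in ESC (3.89 ± 0.31, limma adjusted p = 4.65e-07). Atf3 had 16.4 and 10.2 FPKM in CeXEN, against 2.11 and 0.981 FPKM in ESC (2.50 ± 0.54, limma adjusted p = 0.00213). Pde10a and Atf3 were thus higher in both XEN sources than in ESC. Dusp1 had 9.29 and 5.42 FPKM in CeXEN, against 38.6 and 22.9 FPKM in ESC (-1.92 ± 0.53, limma adjusted p = 0.0102), a call lost without CeXEN replicate 2 (-1.58, adjusted p = 0.0799) or ESC replicate 1 (-1.56, adjusted p = 0.089).

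Day 16 cells were also set against CeXEN, since both carried XEN markers. Of the 10 members, 3 were called higher at day 16 and 0 lower (1 lower, Pde10a, at an unadjusted p under 0.05), against 9.11% of all tested genes higher and 2.18% lower, 11.3% either way. Of the called genes 80.7% were higher at day 16, and 57.6% after quantile normalization. Ppargc1a had 8.78 and 7.96 FPKM at day 16, against 0.455 and 0.293 FPKM in CeXEN (log2 change 2.77 ± 0.18, limma adjusted p = 5.49e-07). Areg had 8.59 and 15.1 FPKM at day 16, against 0.05 and 1.11 FPKM in CeXEN (3.06 ± 0.37, limma adjusted p = 9.39e-05). Crem had 17.3 and 14.4 FPKM at day 16, against 4.25 and 6.91 FPKM in CeXEN (1.38 ± 0.27, limma adjusted p = 0.00384). At day 12, Ppargc1a had 16.2 FPKM, Areg 30.7 FPKM and Crem 18.1 FPKM, above every XEN library. Pde10a had 16.4 and 11.6 FPKM at day 16, against 30.8 and 19.3 FPKM in CeXEN, without overlap and without a call (limma adjusted p = 0.118). None of the 3 calls held where the fit used the libraries of these groups alone (adjusted p of 0.0944 for Ppargc1a, 0.139 for Areg and 0.185 for Crem). Strain and origin differ together between day 16 and CeXEN and cannot be told apart, and the medium of the day 16 cells is not in the labels. The groups also differed in markers, with fibroblast marker sums of 194 and 370 FPKM at day 16, against 1.39 and 40.7 FPKM in CeXEN. Of 7 fibroblast markers 4 were called higher at day 16, and of 7 XEN markers 2 were called lower. The part of such cell types in the member calls was not tested.

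Between CiPSC and ESC, 0 of 10 members and 10 of 16650 genes (0.0601%) were called by limma. At an unadjusted p under 0.05, 1 member was lower in CiPSC (Crem), against 5.09% of all tested genes lower. Crem had a median of 5.29 FPKM in CiPSC, from 4.2 to 6.93 FPKM, against 8.78 and 7.84 FPKM in ESC, with every CiPSC line below both ESC libraries (limma adjusted p = 0.558). Ppargc1a was listed at 0 in all 9 pluripotent libraries. Nr4a1 was even in CiPSC, from 14.0 to 18.1 FPKM with a median of 15.3, against 19.0 and 10.9 FPKM in ESC.

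Egr1 divided the pluripotent libraries. It had 46.9 FPKM in CiPSC C1, 48.6 in C2, 0.467 in C3, 0.343 in G1, 0.288 in G3, 0.103 in N4 and 0.088 in N6, against 31.3 FPKM in ESC replicate 1 and 3.84 FPKM in ESC replicate 2. The values of C1 and C2 lay within the range of MEF, and the 5 other lines stood below 0.5 FPKM. Fosb was also highest in these lines among CiPSC, at 0.52 FPKM in C1 and 0.647 FPKM in C2, against at most 0.137 FPKM in the other lines, and Fos had 7.96 FPKM in C1 and 4.95 FPKM in C2, against 1.01 to 3.72 FPKM in the others. In Dusp1, Nr4a1 and Crem, C1 and C2 lay within the range of the other lines or within 1 FPKM of it. Outside the members, Cyr61 had 87.3 FPKM in ESC replicate 1, 85.7 in C1 and 84.1 in C2, against 9.34 to 24.7 in the other pluripotent libraries. Dusp5 had 16.8, 16.3 and 17.8 FPKM in the same order, against 4.85 to 6.77. Jun, Junb, Srf and Zfp36 also stood higher in these libraries than in every other pluripotent library. Maff, Klf4, Jund and Myc showed no such division. These genes are examples, and the division was not counted over the lists. Over all tested genes, ESC replicate 1 had r = 0.971 with C1 and 0.969 with C2, against 0.959 with ESC replicate 2. The difference of Egr1 between CiPSC and ESC was -1.81 ± 1.47 on the log2 scale (limma adjusted p = 0.793), and leaving out ESC replicate 1 or ESC replicate 2 moved it to -0.44 or -3.18. Among genes with at least 5 FPKM in both libraries, 21.1% differed between C1 and C2 by more than the quantifier's bounds allow. This was the lowest share of all pairs of pluripotent libraries, with 38.1% between N4 and N6 the next. C1 and C2 have separate line names and were kept as separate libraries, and the share does not tell whether they are independent. Culture and harvest of these lines are not in the labels, and their part was not tested.

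Set against MEF, from which the lines came, 3 of 10 members were called lower in CiPSC and 0 higher (0 higher also at an unadjusted p under 0.05), against 15.3% of all tested genes lower and 21.7% higher, 37% either way. Of the called genes 58.7% were higher in CiPSC, and 46.9% after median-of-ratios scaling, with a median change of all genes of 0.25 and 0.05. This comparison shares its libraries with those of CiPSC against day 16 and day 16 against MEF. Pde10a had 0.459 to 1.19 FPKM in CiPSC, against 3.83 and 3.67 FPKM in MEF (log2 change -1.40 ± 0.25, limma adjusted p = 0.000286). Fosb had 0 to 0.647 FPKM in CiPSC, against 2.92 and 0.8 FPKM in MEF (-1.17 ± 0.38, limma adjusted p = 0.0167), a call lost without MEF replicate 1 (-0.61, adjusted p = 0.306). Egr1 had 0.088 to 48.6 FPKM in CiPSC, against 40.0 and 48.9 FPKM in MEF (-3.67 ± 1.47, limma adjusted p = 0.0466), a call made although the groups overlapped, and one that was lost without either MEF library or any of the lines C3, G1, G3, N4 and N6 (adjusted p of 0.0707 to 0.188). Fos had 1.01 to 7.96 FPKM in CiPSC, against 13.2 and 5.99 FPKM in MEF (-1.24 ± 0.57, limma adjusted p = 0.0777), and it was called without line C1 (-1.42, adjusted p = 0.0395) and without both C1 and C2 (-1.56, adjusted p = 0.0301). Crem was level with MEF, at 4.2 to 6.93 FPKM in CiPSC, against 5.55 and 5.56 FPKM in MEF.

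The rest of the cyclic AMP pathway was read from lists of known genes. Of 9 tested genes of adenylyl cyclases and the stimulatory G protein, 0 were called higher (0 also at an unadjusted p under 0.05) and 3 lower at day 16 than in MEF. Gnas, the stimulatory alpha subunit, averaged 252 FPKM at day 16 and 615 FPKM in MEF (log2 change -1.33 ± 0.35, limma adjusted p = 0.0113), and Adcy3 averaged 0.888 FPKM at day 16 and 8.46 FPKM in MEF (-2.30 ± 0.28, limma adjusted p = 3.54e-05). Of 8 tested genes of protein kinase A and its inhibitors, the regulatory subunit Prkar2b was called lower at day 16, and 3 were called lower under either other scaling. Of 7 CREB factors and coactivators, 0 were called by limma in that comparison, also 0 at an unadjusted p under 0.05, and 1 was lower at that p under either other scaling. Over all genes tested, 13.3% were called higher and 7.41% lower in this comparison, and with lists of 9, 8 and 7 genes a count of 0 higher is near that share. The median change was -0.16 for the cyclases and G protein, -0.49 for protein kinase A and -0.12 for the CREB factors, against 0.22 over all genes tested.

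Among 11 tested other phosphodiesterases for cyclic AMP, Pde8a was called higher at day 16 than in MEF and Pde4a and Pde4b lower, with 3 lower under either other scaling, against 13.3% of all tested genes higher and 7.41% lower. Pde8a averaged 21.8 FPKM at day 16 and 6.34 FPKM in MEF (1.64 ± 0.43, limma adjusted p = 0.0115). In CiPSC against day 16, 6 of the 11 were called lower and 0 higher (1 higher at an unadjusted p under 0.05), against 17% of all tested genes lower and 13% higher. They were led by Pde8b, which averaged 0.206 FPKM in CiPSC and 7.68 FPKM at day 16 (-2.85 ± 0.18, limma adjusted p = 2.31e-08), and Pde4d, which averaged 4.51 FPKM in CiPSC and 21.8 FPKM at day 16 (-2.10 ± 0.32, limma adjusted p = 0.000104). Pde10a therefore was 1 of several phosphodiesterases that were lower in the pluripotent lines. In CeXEN against eXEN, 3 of the 11 were called higher, Pde8a, Pde2a and Pde4d, and 0 lower (0 also at an unadjusted p under 0.05), against 4.01% of all tested genes higher and 2.46% lower, with 1 of the 11 called higher after quantile normalization. Pde8a averaged 33.4 FPKM in CeXEN and 1.3 FPKM in eXEN (4.13 ± 0.43, limma adjusted p = 5.48e-05). The median change of these 11 genes was 0.31 between CeXEN and eXEN and -1.20 between CiPSC and day 16, against 0.06 and -0.02 over all genes tested.

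Other known CREB targets were counted in the same way. Of 11 tested, 1 was called higher and 2 lower at day 16 than in MEF, with 3 lower under either other scaling, against 13.3% of all tested genes higher and 7.41% lower. Their median change was 0.14, against 0.22 over all genes tested. Nr4a3, a relative of Nr4a1, was the 1 that rose, averaging 4.83 FPKM at day 16 and 0.505 FPKM in MEF (1.94 ± 0.41, limma adjusted p = 0.00261), and Bdnf and Rgs2 were the 2 that fell. In CiPSC against day 16, 5 of the 11 were called lower and 1 higher, with 3 lower after quantile normalization and 4 after median-of-ratios scaling, against 17% of all tested genes lower and 13% higher. Their median change was -0.75, against -0.02 over all genes tested. Nr4a3 averaged 0.0223 FPKM in CiPSC and 4.83 FPKM at day 16 (-2.49 ± 0.33, limma adjusted p = 2.57e-05). Sik1, a kinase that restrains CREB coactivators, was the 1 called higher (1.03 ± 0.38, limma adjusted p = 0.0361). It had 19.9 to 44.2 FPKM in CiPSC, against 30.2 and 8.5 FPKM at day 16, so day 16 replicate 1 lay within the CiPSC range.

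Other immediate early genes were set beside Fos, Fosb and Egr1. Of 21 tested, 9 were called lower and 2 higher at day 16 than in MEF, against 7.41% of all tested genes lower and 13.3% higher. The median change of the 21 was -1.20, against 0.22 over all genes tested. Ctgf had 32.1 and 14.2 FPKM at day 16, against 1580 and 162 FPKM in MEF (-4.50 ± 1.26, limma adjusted p = 0.016). Klf2 had 2.12 and 0.78 FPKM at day 16, against 20.3 and 16.2 FPKM in MEF (-3.02 ± 0.63, limma adjusted p = 0.00254). As given above, 11 of these 21 genes were past a 2-fold difference higher in MEF replicate 1 than in MEF replicate 2. The calls of this list were not read with MEF replicate 1 left out. The 2 called higher were Klf4, a reprogramming factor that averaged 227 FPKM at day 16 and 24.2 FPKM in MEF (3.04 ± 0.44, limma adjusted p = 0.000156), and Btg2, a growth-restraining gene. In eXEN against ESC, 6 of the 21 were called higher and 2 lower, against 9.78% of all tested genes higher and 18.4% lower, with Jun, the partner of FOS proteins, at a mean of 59.4 FPKM in eXEN and 6.21 FPKM in ESC (3.14 ± 0.58, limma adjusted p = 0.000801). In CeXEN against eXEN, 0 of the 21 were called by limma, with 2 higher and 2 lower at an unadjusted p under 0.05. Over all tested genes, 4.01% were called higher and 2.46% lower there, and a count of 0 in 21 is near that share.

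For Areg, the related ligands and receptors were set beside it. Tgfa, a ligand of the same receptor, averaged 5.84 FPKM at day 16 and 0.543 FPKM in MEF (2.15 ± 0.31, limma adjusted p = 0.000142), and the receptor gene Egfr averaged 5.29 FPKM at day 16 and 28.5 FPKM in MEF (-2.24 ± 0.36, limma adjusted p = 0.000394). Of 6 tested genes of this family, 1 was thus called higher and 1 lower, against 13.3% of all tested genes higher and 7.41% lower. In CiPSC against day 16, Ereg, Tgfa and Egfr were called lower and the receptor gene Erbb3 higher, of 6 tested genes of this family, against 17% of all tested genes lower and 13% higher. Ereg averaged 0.0564 FPKM in CiPSC and 5.28 FPKM at day 16 (-2.49 ± 0.55, limma adjusted p = 0.00201). For Ppargc1a, of 6 tested partners and relatives of PGC-1alpha, Esrra alone was called at day 16 against MEF, averaging 33.2 FPKM at day 16 and 16.6 FPKM in MEF (1.01 ± 0.28, limma adjusted p = 0.016), a call not made under either other scaling. A count of 1 in 6 is near the 13.3% of all tested genes called higher in this comparison.

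The genes whose pattern was most like each member were found by Pearson's r of log2(FPKM + 1) over the 21 libraries, among 8919 tested genes with a mean of at least 5 FPKM. The libraries fall into cell types, so r mainly follows differences between these types and is given as a description. Ppargc1a was most like Tspan8 (r = 0.974), Kcne3 (0.966) and Igf2os (0.961), and Areg most like Aqp5 (0.961), Sprr1a (0.955) and Prl2c2 (0.951). Pde10a was most like Acsl4 (0.926), Atf3 most like Pla2g12b (0.921), and Crem most like Dio3 (0.851), with Penk, a known target of CREB, at 0.849. Fosb had Limch1 first (0.883) and Fos itself among the first 3 (0.859). Fos was most like Ppp1r15a (0.82) and Srf (0.81), the gene of serum response factor. Egr1 was most like Tab2 (0.9), Dusp1 most like Raph1 (0.864) and Nr4a1 most like Relt (0.791). Among the members, r over the same libraries was 0.87 for Areg and Ppargc1a, 0.823 for Areg and Crem, 0.808 for Ppargc1a and Crem, and 0.756 for Fos and Nr4a1.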

How the data were processed

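Total RNA of 21 libraries was sequenced, with RNeasy Plus Mini extraction and NEBNext Ultra library kits, per the labels' protocols. Each library has a deposited file of FPKM per gene. The authors' tools were TopHat and Cufflinks and the build mm10, per the submitters' processing notes. Their versions and the gene models are not given in the sources used here. Read counts are not used here, so the depth behind a value was read from the quantifier's bounds. The 10 members, the pathway and marker lists and the tests were chosen with earlier results of these data known. All members were always named, list genes as up to 4 called genes with the largest change per comparison (some are left out), and likeness as the 3 highest r.

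The 16650 of 43436 genes that reached 1 FPKM in 2 or more libraries were fitted as log2(FPKM + 1) with limma 3.58.1 in R 4.3.3, with 1 coefficient per group over all 21 libraries (11 residual degrees of freedom) and an intensity trend, with Benjamini-Hochberg adjustment over all tested genes. The 8 comparisons share groups with each other. A day trend used the 6 libraries of day 12 to day 28. Groups of 1 library add no residual degrees of freedom. The script was tested on simulated data with known changes. Alternatives were the pseudocount (0.1), no filter, quantile and median-of-ratios scaling, a fit of the groups compared alone, a robust prior without the trend, a block on replicate number, single eXEN libraries and each library left out. Another 3 were added once the data had been seen: eXEN replicate 1 alone, the 4 libraries with low-data rows for the trend, and CiPSC without C1 and C2. Coordinates are mm10, counted from 1, and promoters are from RefSeq (GRCm38.p6).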

Additional observations from a re-analysis of the deposited data

How the results depend on the processing

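The counts of members called stayed within 1.5 times under the pseudocount of 0.1, no filter, both scalings and the robust prior in all 8 comparisons. The fit of the groups compared alone, with fewer residual degrees of freedom by its construction, called 0 members and 0 genes in day 16 against MEF, CeXEN against eXEN and day 16 against CeXEN, where 5, 3 and 3 members and 3452, 1077 and 1879 genes were called with all libraries. At an unadjusted p under 0.05 that fit had 6, 3 and 3 members and 4062, 2184 and 3210 genes. It called 1 member instead of 4 in eXEN against ESC and 26 genes instead of 10 in CiPSC against ESC. With eXEN replicate 1 alone, CeXEN against eXEN called 1 member and 568 genes. CiPSC against ESC called 5 genes with the pseudocount of 0.1 and 84 without C1 and C2, and 0 members in each. Leaving out 1 library gave 1 to 5 members and 545 to 1845 genes in CeXEN against eXEN (lowest without eXEN replicate 2, highest without CeXEN replicate 1), 5 to 45 genes in CiPSC against ESC (without ESC replicate 2 and replicate 1) and 1 to 4 members in CiPSC against MEF (lowest without MEF replicate 1, highest without MEF replicate 2 or line C1). The difference of Nr4a1 between CeXEN and eXEN was -1.01, and it was -2.33 without CeXEN replicate 1 and turned to 0.30 without CeXEN replicate 2. Beyond the construction of the fits, the causes were not tested.

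Replicate numbers did not pair the libraries (correlations of deviations of -0.116 to 0.051 between same-numbered libraries). With the replicate number as a block, 4 members were called in day 16 against MEF, 3 in CeXEN against eXEN, 4 in eXEN against ESC, 3 in CeXEN against ESC, 3 in day 16 against CeXEN, 4 in CiPSC against day 16, 0 in CiPSC against ESC and 4 in CiPSC against MEF. Low levels limit Ppargc1a and Areg in CiPSC and ESC and Fosb at day 16, where the quantifier's lower bound is 0 in every library.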

Other observations

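Relatives of Dusp1 were called in both directions. Of 8 tested other MAP kinase phosphatases, Dusp5 and Dusp7 were called lower and Dusp16 higher at day 16 than in MEF by limma. Over all tested genes, 7.41% were called lower and 13.3% higher in that comparison. Dusp4 and Dusp10 were called lower in CiPSC than at day 16, against 17% of all tested genes lower and 13% higher. Dusp5 had 2.47 and 3.41 FPKM at day 16, against 53.4 and 5.48 FPKM in MEF, so most of its difference lay in MEF replicate 1. Dusp4 averaged 2.41 FPKM in CiPSC and 17.5 FPKM at day 16. Of 7 heat shock genes, set beside the members as a sign of stress, Hspb1 alone was called in day 16 against MEF (lower) and in CeXEN against eXEN (higher). It averaged 46.8 FPKM at day 16 and 143 FPKM in MEF, and 17 FPKM in CeXEN and 0.869 FPKM in eXEN. Over all tested genes, 20.7% and 6.47% were called either way in these comparisons, in the same order. The summed heat shock genes gave 950 and 1640 FPKM in the eXEN libraries, against 3570 and 4020 FPKM in ESC. Most of the ESC sums came from Hspa8 (1630 and 1740 FPKM) and Hsp90aa1 (1310 and 1560 FPKM). Hspa1a and Hspa1b had at most 5.59 FPKM in the eXEN and ESC libraries. The sums are thus not read as a level of stress.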
